A study of Mus musculus with 22 samples.

Results

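Angiogenic islets of RT2 mice were compared with normal islets, both being islet preparations from the pancreas. The samples were chosen by their tissue label alone, which gave 3 angiogenic and 3 normal arrays, 6 of the 22 in the series. Each sample was hybridized to its own Affymetrix Mouse Gene 1.0 ST array, and every gene with a probe set of a single symbol entered the comparison, 19938 genes in all. Values from 3 hyperplastic islet arrays were set beside them, and the other 13 arrays, from tumours and liver metastases, entered only the estimate of each gene's spread. The angiogenic, hyperplastic and normal islets all carry the same genotype label, RIP1-TAG2, a transgene in which the insulin promoter drives a viral large T antigen in beta cells. The normal islets are therefore labelled as islets of the transgenic line and not of wild-type mice. The labels give no treatment, age or sex for any islet group, and do not say whether the 3 arrays of a group came from separate animals or how many islets or animals were pooled for an array. The p-values therefore measure the spread within the groups of the 22 arrays, tumours and metastases included, and that spread may be technical.

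In RT2 mice the large T antigen binds the retinoblastoma and Trp53 proteins, which releases beta cells into division. Lesions are known to pass through hyperplastic islets, then through an angiogenic stage in which vessels sprout and the islet turns red with blood, and finally through solid tumours. Angiogenesis needs endothelial cells that divide and migrate, mural cells (pericytes and smooth muscle) that cover the new tube, and a remodelled matrix, and macrophages and mast cells are known to supply proteases and growth factors to it. The islets around these vessels are made of beta cells with fewer alpha, delta and pancreatic polypeptide cells, and cells of the exocrine pancreas can be carried along when islets are isolated.

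The deposited values are log2 intensities, so a difference of 1 is a factor of 2 in signal. In each list of array values below the order is AngiogenicI-93, Angiogenic2006 and Angiogenic2007, then NormalI-93, Normal2006 and Normal2007, as the samples are titled. Array medians lay between 7.14 and 7.16 in angiogenic islets and between 7.08 and 7.12 in normal islets, and no pair of the 6 arrays was a duplicate (highest correlation across genes 0.9914). *Ins2*, an insulin gene and the defining product of the labelled tissue, was at 11.09, 11.22 and 11.23 in angiogenic islets, against 11.02, 11.04 and 10.91 in normal islets. Several arrays stood apart in RNA of other cells, as the plot of cell type lists shows. The mean over 10 B-lymphocyte genes was 8.33, 8.17 and 6.11 in angiogenic islets and 6.49, 6.48 and 6.35 in normal islets, so the Angiogenic2007 array lay below the normal islets. The mean over 19 hepatocyte genes was 7.04, 8.12 and 8.69 in angiogenic islets and 7.09, 6.98 and 7.16 in normal islets, high on Angiogenic2006 and Angiogenic2007 alone. The mean over 18 acinar genes was 10.93, 10.99 and 9.8 in angiogenic islets and 10.53, 11.13 and 8.06 in normal islets, lowest on Normal2007. The mean over 32 mitosis genes was 9.05, 9.19 and 9.16 in angiogenic islets and 7.66, 6.71 and 6.23 in normal islets, highest on NormalI-93 among the normal arrays. The Y-linked gene *Eif2s3y* was at 8.16, 7.76 and 8.16 in angiogenic islets, against 8.55, 4.74 and 7.94 in normal islets, lowest on Normal2006, and *Xist*, transcribed from the inactive X chromosome of females, was at 10.95, 10.9 and 10.87 in angiogenic islets, against 10.79, 11.41 and 11.23 in normal islets, without any low array. In tissue of mixed cells, fewer cells of a type and less RNA per cell cannot be told apart.

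**Figure D1:**
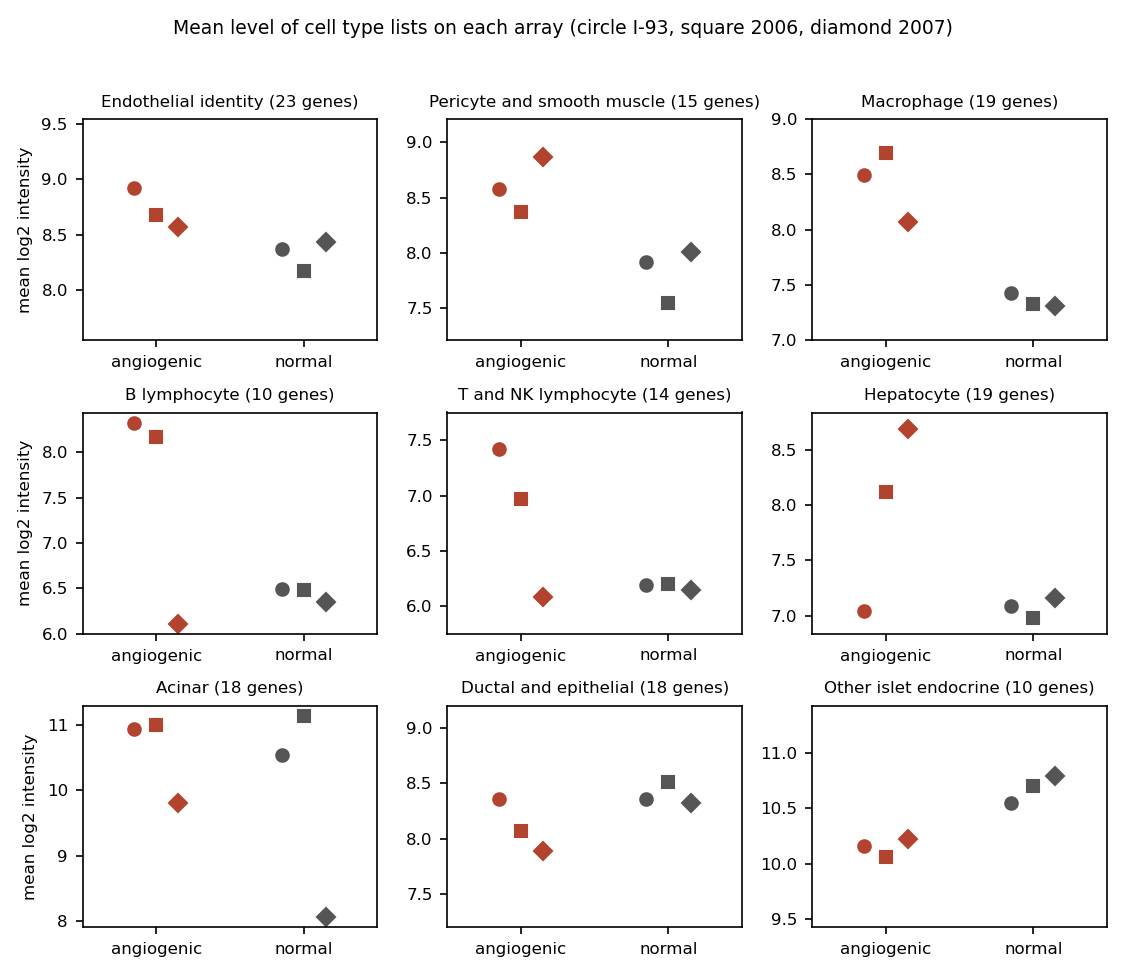
Mean log2 intensity over each cell type list (y axis) on each of the 3 angiogenic (left) and 3 normal (right) arrays; the panel title gives the number of genes averaged. Macrophage and pericyte lists were higher on all 3 angiogenic arrays, lymphocyte lists on AngiogenicI-93 and Angiogenic2006, and the hepatocyte list on Angiogenic2006 and Angiogenic2007.

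Over all genes, 4946 of 19938 (24.8%) differed between angiogenic and normal islets at a limma adjusted p below 0.05, which is what "called" means throughout. Of these, 2353 (11.8% of all genes) were higher and 2593 (13.0%) were lower in angiogenic islets. When each array was centred on its median the same test called 1866 higher and 5142 lower, so the balance of directions depends on the scaling, and the median difference over all genes was -0.07 as deposited and -0.17 after centring. Without Normal2006 the lower calls numbered 1642, and without Angiogenic2006 they numbered 1666. With the lymphocyte mean of each array as a covariate 1451 genes were called higher and 1247 lower, and with the hepatocyte mean 2044 and 1565. Of the genes given as called below, *Aldoa*, *Bak1*, *Bcl2*, *Bcl2l1*, *Cd74*, *Cldn4*, *Dnajb9*, *Emilin1*, *Eno2*, *Fabp4*, *Fh1*, *Foxa2*, *Hk2*, *Idh2*, *Igf1r*, *Mcl1*, *Meg3*, *Ms4a1*, *Pdgfa*, *Pfkfb3*, *Pfkp*, *Pparg*, *Pyy*, *Rab3a*, *Scd1*, *Scg5*, *Sdhc*, *Snap25*, *Sqle*, *Syt7*, *Thbs3*, *Ttr* and *Vegfb* were not called with the lymphocyte covariate. With the hepatocyte covariate *Alb*, *Aldoa*, *Bcl2l1*, *Bcl2l2*, *Cldn4*, *Cps1*, *Ddit4*, *Dnajb9*, *Emilin1*, *Etv1*, *Fh1*, *Hbegf*, *Idh2*, *Igfbp6*, *Krt18*, *Ldhb*, *Ncam1*, *Pdgfa*, *Pparg*, *Pyy*, *Sdhc*, *Sqle*, *Syt7*, *Thbs3*, *Trf* and *Ttr* were not. Genes named below mostly follow a fixed rule on size, adjusted p and stability when single arrays are left out; those added to complete a count or a comparison were chosen after their values were seen. The largest rises were in division and matrix genes (*Bub1*, *Top2a*, *Neil3*, *Mki67*, *Kif11*, *Hells*, *Kif20b*, *Ncapg* and *Anln*, with *Fn1* and *Thbs4*) and in the trypsinogen gene *Prss3*. The largest falls were in *Asb11*, *Pla2g2f*, *Vil1*, *Defb1*, *Ugt2b34*, *Sult1d1*, *Ccnd2*, *Cox6a2*, *Angptl7*, *Slco1a6*, *Sfrp5* and *Tmigd3*.

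Of the 2353 genes higher in angiogenic than in normal islets, 412 (17.5%) were also higher than in hyperplastic islets, and 846 (36.0%) were higher in hyperplastic than in normal islets. Of the 2593 lower genes, 31 (1.2%) were also lower than in hyperplastic islets and 764 (29.5%) were lower in hyperplastic than in normal islets. Angiogenic islets differed from hyperplastic islets in 505 genes (2.53% of all; 2.29% higher and 0.246% lower), and hyperplastic from normal islets in 1722 (8.64%; 4.46% higher and 4.17% lower). These comparisons share arrays, so each gene's values are given side by side and the shares above are counts only. Arrays that share a title code deviated together in both of these comparisons. With the code as a block in the 6 compared arrays, 842 genes were called higher and 197 lower in angiogenic than in hyperplastic islets, 1039 in all. Between hyperplastic and normal islets such a block gave 1240 higher and 1255 lower. Calls given without mention of the block are from the fit that has none.

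**Figure D2:**
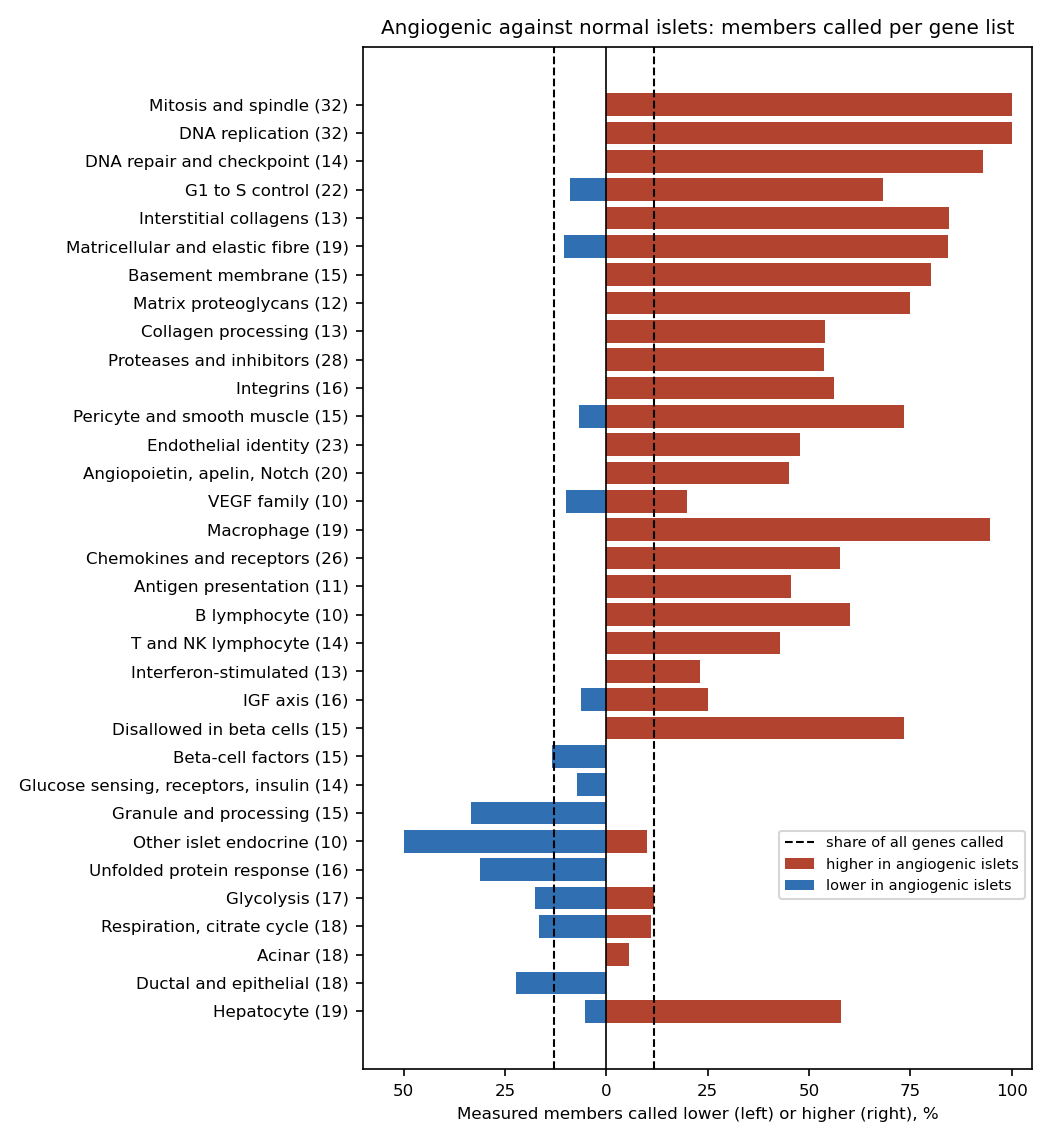
Share of the measured members of each gene list called lower (left) or higher (right) in angiogenic than in normal islets, with the number measured in brackets; dashed lines mark the share of all genes called, 13.0% lower and 11.8% higher. All members of the mitosis and replication lists were called higher, and 5 of the 10 other islet endocrine genes were called lower.

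Genes of the cell division cycle rose in angiogenic islets. All 32 genes of mitosis and the spindle were called higher, with a median difference of 2.23, and all 32 genes of DNA replication were, with a median of 1.69. Of 14 genes of DNA repair and the replication checkpoint, 13 were called higher (median 1.7). *Mki67*, which encodes the proliferation antigen of dividing cells, was at 10.35, 10.55 and 10.58 in angiogenic islets, against 8.7, 7.24 and 6.52 in normal islets. All 3 angiogenic arrays lay within a narrow band, while NormalI-93 stood above the other normal arrays. The difference was 3.01 ± 0.35 (log2 ± SE, adjusted p = 3.05e-06), an 8.04-fold higher level. The SE and adjusted p take 1 spread per gene for all 6 groups, but the spreads were unequal here. For *Mki67* the SD was 1.11 in normal and 0.13 in angiogenic islets, and for *Bub1* 1.18 and 0.05. For such genes the SE does not reflect the wider spread of the normal arrays. *Top2a*, the topoisomerase that untangles sister chromatids, was 3.08 higher (adjusted p = 2.24e-06), and its other probe set, with a lower signal, was 0.97 higher (adjusted p = 0.00707). *Bub1*, a kinase of the spindle checkpoint, was at 9.18, 9.27 and 9.27 in angiogenic islets, against 7.47, 5.63 and 5.27 in normal islets, the widest difference of the list at 3.12 ± 0.35 (adjusted p = 2.06e-06).

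*Cdk1*, the kinase that starts mitosis, was at 8.94, 9.05 and 9.13 in angiogenic islets, against 7.47, 6.63 and 6.19 in normal islets. Its difference was 2.28 ± 0.22 (adjusted p = 6.92e-07), and again the groups did not overlap. *Kif11*, *Kif20a* and *Kif20b*, motors of the spindle and the midzone, were 2.96, 1.92 and 2.8 higher, and the kinetochore genes *Cenpe* and *Cenpf* were 2.65 and 2.23 higher. *Anln*, an actin-binding protein of the cleavage furrow, and *Ncapg*, a condensin subunit, were 2.78 and 2.79 higher. Among the replication genes, *Mcm6*, a subunit of the helicase that opens origins, was at 10.33, 10.28 and 10.32 in angiogenic islets, against 9.01, 8.0 and 7.77 in normal islets. Its difference was 2.05 ± 0.2 (adjusted p = 6.79e-07). *Rfc3*, of the clamp loader, *Lig1*, the ligase that joins Okazaki fragments, and *Chaf1a*, of the histone chaperone behind the fork, were 1.41, 1.68 and 1.47 higher. *Hells*, a chromatin remodeller, was 2.85 higher. In repair, *Brca1*, *Rad54l*, *Exo1*, *Fanca* and the DNA glycosylase gene *Neil3* were 2.1, 1.91, 1.79, 1.66 and 3.02 higher.

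In hyperplastic islets too, all 32 mitosis genes and all 32 replication genes were called higher than in normal islets, beside 4.46% of all genes. By limma 0 of these 64 genes were called between angiogenic and hyperplastic islets, and 0 had an unadjusted p below 0.05, while 2.29% of all genes were called higher. The median angiogenic minus hyperplastic difference was 0.29 for mitosis and 0.14 for replication. For *Mki67* the angiogenic mean exceeded the hyperplastic mean of 10.13 by 0.37 (adjusted p = 0.708), which does not show that the stages were alike. With the title code as a block in the 6 compared arrays, 8 of the 32 mitosis genes and 0 of the 32 replication genes were called higher in angiogenic than in hyperplastic islets.

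Promoters of 4 of these genes are shown because they hold the motifs that are known to mark both classes, the E2F site of replication genes and the cell cycle homology region (CHR) with CCAAT boxes of mitosis genes. Those of *Cenpe*, which held no CHR match, and of *Lig1* and *Chaf1a*, which held no E2F match, are not shown. The sequences are from RefSeq, build GRCm38.p6, and run 5′ to 3′ on the gene's strand from 250 bases before to 50 bases after its start. Capitals mark the motifs searched on both strands: TTTGGCGC or TTTCGCGC for E2F, TTTGAA for CHR and CCAAT, which reads ATTGG on the other strand. The run of capitals in *Mcm6* is a pair of overlapping E2F matches on opposite strands. The *Cdk1* window is chr10:69352863-69353162, that of *Cenpf* chr1:189688037-189688336, that of *Mcm6* chr1:128359656-128359955 and that of *Rfc3* chr5:151651159-151651458, all on the minus strand.
Cdk1: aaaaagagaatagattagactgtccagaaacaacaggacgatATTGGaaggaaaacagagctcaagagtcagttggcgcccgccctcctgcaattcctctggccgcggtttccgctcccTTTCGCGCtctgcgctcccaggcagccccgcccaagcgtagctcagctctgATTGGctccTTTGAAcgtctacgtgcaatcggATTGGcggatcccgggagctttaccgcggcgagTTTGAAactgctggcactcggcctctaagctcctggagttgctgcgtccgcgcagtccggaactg
Cenpf: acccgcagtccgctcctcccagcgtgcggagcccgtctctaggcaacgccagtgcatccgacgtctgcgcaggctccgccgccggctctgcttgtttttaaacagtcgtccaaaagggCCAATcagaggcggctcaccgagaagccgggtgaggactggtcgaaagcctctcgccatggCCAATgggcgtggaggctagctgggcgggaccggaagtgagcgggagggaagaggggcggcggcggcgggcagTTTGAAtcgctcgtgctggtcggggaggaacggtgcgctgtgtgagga
Mcm6: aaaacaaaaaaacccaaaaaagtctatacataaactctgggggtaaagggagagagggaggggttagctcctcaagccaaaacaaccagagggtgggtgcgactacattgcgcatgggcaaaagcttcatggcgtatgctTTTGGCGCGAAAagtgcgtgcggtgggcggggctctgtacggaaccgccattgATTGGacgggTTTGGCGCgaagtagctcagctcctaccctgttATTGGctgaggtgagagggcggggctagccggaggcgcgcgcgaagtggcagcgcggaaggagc
Rfc3: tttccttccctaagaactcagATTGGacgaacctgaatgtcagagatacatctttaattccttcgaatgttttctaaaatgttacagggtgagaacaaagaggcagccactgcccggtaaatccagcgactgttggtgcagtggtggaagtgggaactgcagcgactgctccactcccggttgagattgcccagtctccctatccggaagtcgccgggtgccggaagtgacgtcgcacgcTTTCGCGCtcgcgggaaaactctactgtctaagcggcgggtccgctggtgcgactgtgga
Of 27 mitosis genes with a listed promoter, 20 (74.1%) held the CHR sequence, against 2368 of all 15614 promoters of measured genes (15.2%) and 4 of 27 replication genes (14.8%). The E2F sequences were in 8 of 27 replication promoters (29.6%), in 1 of 27 mitosis promoters (3.7%), the *Cdk1* promoter shown, and in 180 of all promoters (1.15%). CCAAT was in 18 of 27 promoters of each list (66.7%) and in 38.2% of all promoters. A match is a description of these letters in this window and not a measured binding site.

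The genes that govern entry into S phase moved in both directions. Of 22 measured, 15 were called higher and 2 lower, and the 2 that fell were both D-type cyclins, which couple growth signals to the cell cycle. *Ccnd2*, the cyclin D2 gene of beta cells, was at 10.9, 10.31 and 10.43 in angiogenic islets, against 12.76, 12.73 and 12.87 in normal islets. It fell by 2.24 (adjusted p = 3.68e-07), and the values did not overlap. *Ccnd1* fell by 1.41 (adjusted p = 3.93e-07). In hyperplastic islets *Ccnd2* averaged 11.09, a hyperplastic minus normal difference of -1.69 (adjusted p = 1.2e-05), and the angiogenic minus hyperplastic difference was -0.55 (adjusted p = 0.192, or 0.00947 with the title code as a block in the 6 compared arrays). *Rb1*, the retinoblastoma gene itself, was at 9.52, 9.48 and 9.6 in angiogenic islets, against 9.17, 8.61 and 8.99 in normal islets, a difference of 0.61 ± 0.15 (adjusted p = 0.00526). Its relative *Rbl1* was 1.51 higher (adjusted p = 9.88e-07) and the repressor *E2f7* 1.62 higher (adjusted p = 1.4e-06). The inhibitor genes *Cdkn2c* and *Cdkn2a* were 2.32 (adjusted p = 4.11e-06) and 1.21 higher (adjusted p = 2.8e-05). *Trp53* and *Cdkn1a* were not analysed here. Of 12 other Trp53 target genes, 3 were called higher, *Gadd45a* (1.02), *Phlda3* (0.47) and *Tnfrsf10b* (0.4), and 5 without Angiogenic2007. *Mdm2*, a target and the inhibitor of Trp53, differed by 0.03 ± 0.09 (adjusted p = 0.852). Of 12 Bcl2-family genes, the pro-apoptotic *Bcl2l11* (0.66) and *Bak1* (0.41) and the survival genes *Bcl2* (0.62) and *Mcl1* (0.4) were called higher, and the survival genes *Bcl2l2* (-0.48) and *Bcl2l1* (-0.34) lower. Over all genes 11.8% were called higher and 13.0% lower. *Mcl1* was not called without AngiogenicI-93, Angiogenic2006, NormalI-93, Normal2006 or Hyperplastic2007, nor *Bcl2l1* without Angiogenic2006, Angiogenic2007, Normal2006 or Normal2007, and with the lymphocyte covariate 1 gene of the family was higher and 1 lower.

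**Figure D3:**
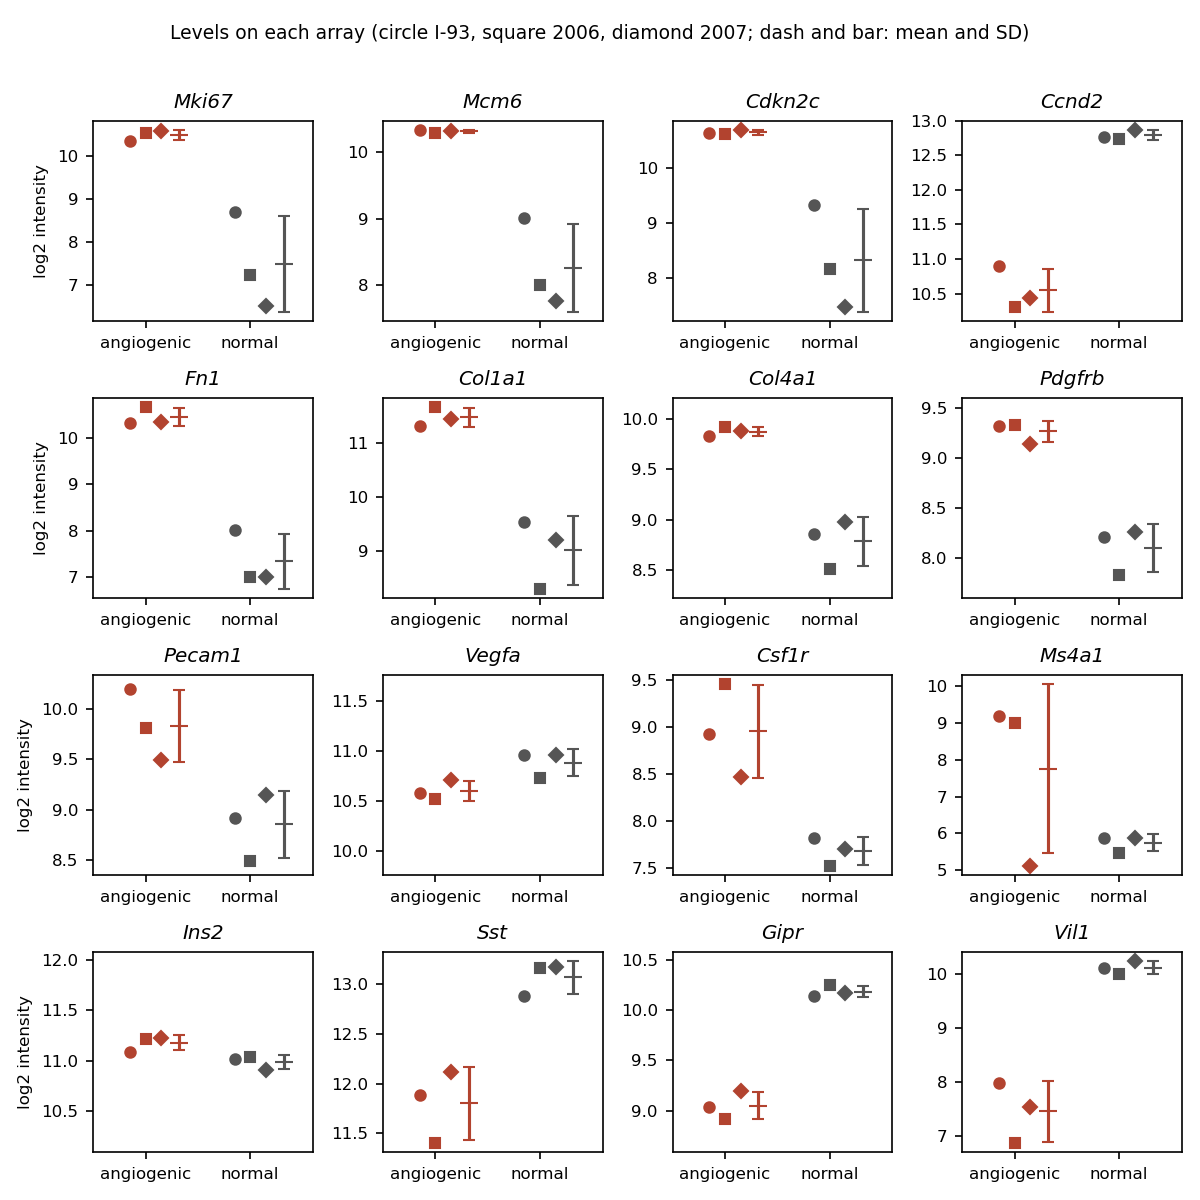
Log2 intensity of 16 genes (y axis, own scale per panel) on each angiogenic (left) and normal (right) array, with the group mean and SD beside the points. *Mki67*, *Fn1* and *Col1a1* were higher and *Ccnd2*, *Sst*, *Gipr* and *Vil1* lower on all 3 angiogenic arrays, while *Ms4a1* was high on AngiogenicI-93 and Angiogenic2006 and low on Angiogenic2007.

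Genes of the extracellular matrix also rose, and most of those that did were called against hyperplastic islets as well. Of 13 interstitial and network collagen genes 11 were called higher (median 1.33), of 15 basement membrane genes 12 (median 0.9), of 12 proteoglycan genes 9 (median 1.04) and of 19 matricellular and elastic fibre genes 16 (median 1.06), with *Thbs3* (-0.49) and *Emilin1* (-0.42) lower. *Emilin1* lost its call whichever of the 6 compared arrays was left out, and *Thbs3* without AngiogenicI-93, Angiogenic2006, Normal2006 or Normal2007. *Fn1*, fibronectin, was at 10.32, 10.67 and 10.35 in angiogenic islets, against 8.02, 6.99 and 6.99 in normal islets. No angiogenic array came within 2 units of a normal one, and the difference was 3.11 ± 0.22 (adjusted p = 2.15e-08), an 8.62-fold higher signal. *Fn1* was also 2.27 above hyperplastic islets, whose mean was 8.17 (adjusted p = 1.07e-05). Hyperplastic islets in turn stood 0.84 above normal islets (adjusted p = 0.0163).

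*Col1a1*, a chain of fibrillar type I collagen, was at 11.3, 11.66 and 11.43 in angiogenic islets, against 9.54, 8.3 and 9.2 in normal islets. It was 2.45 higher (adjusted p = 9.95e-07) and stood 2.02 above hyperplastic islets (adjusted p = 8.5e-05). *Col5a2*, which joins type I fibrils, and the microfibril chains *Col6a1* and *Col6a3* were 1.58, 1.33 and 1.62 higher. *Thbs4*, a thrombospondin of tendon and vessel wall, was at 9.34, 9.88 and 9.41 in angiogenic islets, against 7.1, 6.72 and 6.28 in normal islets. Its difference was 2.85 ± 0.32 (adjusted p = 1.81e-06), and against hyperplastic islets it was 2.42 (adjusted p = 0.000134). *Tnc*, tenascin C, and *Mfap5*, a protein of elastic microfibrils, were 1.71 and 2.05 higher. The small leucine-rich proteoglycans *Lum*, *Bgn*, *Ogn* and *Aspn*, which bind collagen fibrils, were 2.28, 1.96, 1.65 and 1.57 higher. In the basement membrane, which lies under endothelium and around islets, *Col4a1* was at 9.83, 9.92 and 9.88 in angiogenic islets, against 8.86, 8.51 and 8.98 in normal islets, a difference of 1.09 ± 0.11 (adjusted p = 9.88e-07). *Col4a2*, *Lamb1*, a laminin chain, and *Sparc*, a collagen-binding protein, were 1.16, 1.17 and 1.51 higher. Values did not overlap between the groups, in either direction, for 57 of the 59 genes of these 4 lists and for 41.9% of all genes.

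Enzymes that build and cut the matrix rose in part. Of 13 genes of collagen modification and cross-linking 7 were called higher, among them *Lox* (1.91, adjusted p = 8.9e-06) and *Loxl1* (1.32), which cross-link collagen and elastin, *Plod2* (1.87), a collagen lysyl hydroxylase, and *Pcolce* (1.07), which speeds procollagen cleavage. Of 28 protease and inhibitor genes 15 were called higher. *Mmp14*, the membrane-bound collagenase, was at 9.17, 9.34 and 8.89 in angiogenic islets, against 7.84, 7.05 and 7.44 in normal islets, a difference of 1.69 ± 0.18 (adjusted p = 1.26e-06). The inhibitor *Timp1*, the plasminogen activator *Plau* and the cathepsin *Ctsc* were 1.58, 0.95 and 1.91 higher. *Mmp9*, a gelatinase linked to the angiogenic switch in this model, was at 6.1, 6.31 and 6.11 in angiogenic islets, against 6.09, 6.01 and 6.02 in normal islets, a difference of 0.13 ± 0.1 (adjusted p = 0.347) that was not called. Of 16 integrin genes 9 were called higher (5 without Normal2006), with the collagen receptor *Itga1* (1.21), the fibronectin receptor *Itga5* (0.92), *Itga4* (1.55) and *Itga9* (0.68) leading. *Vim*, the intermediate filament of mesenchymal cells, was 1.55 higher (adjusted p = 2.7e-05) and the repressor *Zeb2* 1.13 higher (adjusted p = 0.000171). Of 13 genes of that mesenchymal list 7 were called, but only 3 without AngiogenicI-93, 4 without Normal2007 and 3 with the lymphocyte covariate.

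Against hyperplastic islets, 11 of the 13 collagen genes, 11 of the 15 basement membrane genes, 8 of the 12 proteoglycans and 15 of the 19 matricellular genes were called higher, beside 2.29% of all genes. Between hyperplastic and normal islets limma called 1 of the 59, the matricellular gene *Fn1*, higher in hyperplastic islets, and 6 had an unadjusted p below 0.05. With the title code as a block in these 6 arrays 4 were called higher and 2 lower, all matricellular. The plot of list medians shows the separation: the matrix lists had hyperplastic minus normal medians from 0.0 to 0.13, while those of the division lists were 1.49 to 1.92. The angiogenic-hyperplastic call count as a whole moved with single arrays. It was 869 without Angiogenic2007, 275 without Hyperplastic2006, 284 without Angiogenic2006 and 316 without Hyperplastic2007, in place of 505.

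**Figure D4:**
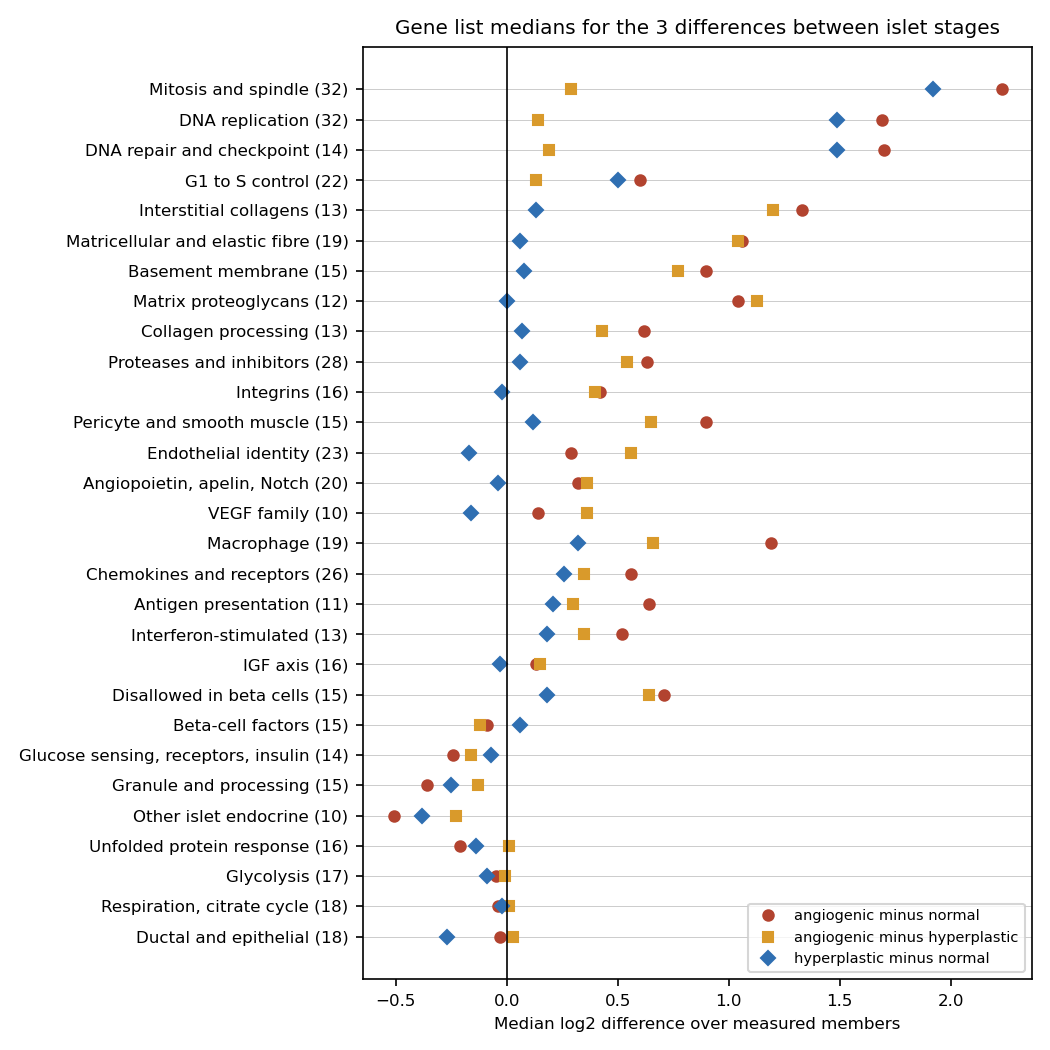
Median log2 difference over the measured members of each gene list (number in brackets) for angiogenic minus normal, angiogenic minus hyperplastic and hyperplastic minus normal islets. The mitosis list had medians of 2.23, 0.29 and 1.92, and the interstitial collagen list 1.33, 1.2 and 0.13; the differences share arrays.

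Marker genes of mural cells and, for 11 of 23, of endothelium were called higher in the islet RNA. Of 15 pericyte and smooth muscle genes 11 were called higher (median 0.9). *Pdgfrb*, the receptor that recruits pericytes, was at 9.32, 9.33 and 9.14 in angiogenic islets, against 8.21, 7.83 and 8.26 in normal islets. The groups did not overlap, and the difference was 1.16 ± 0.14 (adjusted p = 5.19e-06). *Rgs5*, a pericyte marker, was 1.15 higher, *Tagln*, a contractile protein, 1.31 and *Mylk*, the myosin light chain kinase, 0.79. *Anpep*, an aminopeptidase also found on epithelia, was the exception at -1.26 (adjusted p = 0.00116). The ligand *Pdgfb*, which endothelium releases, was 0.42 higher (adjusted p = 0.000886), *Pdgfra*, a fibroblast receptor, 1.31 higher (adjusted p = 0.000103) and the ligand *Pdgfa* lower at -0.27 (adjusted p = 0.022), not called without AngiogenicI-93, Angiogenic2006, NormalI-93 or Normal2006.

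The 23 endothelial genes had a median difference of 0.29. *Pecam1*, an adhesion protein between endothelial cells, was at 10.2, 9.81 and 9.49 in angiogenic islets, against 8.92, 8.49 and 9.15 in normal islets. It was 0.98 ± 0.18 higher (adjusted p = 0.000414) without overlap. *Cdh5*, the endothelial cadherin, *Cd34* and *Mcam* were 0.89, 0.99 and 0.92 higher. The count depended on single arrays: it was 4 without AngiogenicI-93 and 6 without Normal2006. It was 4 with the lymphocyte covariate and 7 with each array centred on its median. Against hyperplastic islets 14 of the 23 were called higher, *Pecam1* by 0.96 (adjusted p = 0.00344), and 17 with the title code as a block in the 6 compared arrays. Between hyperplastic and normal islets limma called 0, with 4 at an unadjusted p below 0.05, and 2 lower with that block. Of 20 genes of the angiopoietin, apelin and Notch systems 9 were called higher, but 4 without Normal2006 and 5 without AngiogenicI-93 or without Angiogenic2006. With the lymphocyte covariate 3 were called higher, and with each array centred on its median 4. *Aplnr*, the apelin receptor of sprouting endothelium, was at 8.68, 8.54 and 8.43 in angiogenic islets, against 7.38, 7.04 and 7.42 in normal islets, a difference of 1.27 ± 0.14 (adjusted p = 1.51e-06). *Jag1*, a Notch ligand, was 1.01 higher and the semaphorin receptor *Plxnd1* 0.81 higher.

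*Vegfa*, its main receptors and *Angpt2* were not called between angiogenic and normal islets. *Vegfa* encodes the main endothelial growth factor and is abundant in beta cells. It was at 10.58, 10.52 and 10.71 in angiogenic islets, against 10.96, 10.73 and 10.96 in normal islets. All 3 angiogenic arrays lay below the normal ones, but the difference of -0.28 ± 0.13 was not called (adjusted p = 0.129). Its receptors *Kdr* (0.13 ± 0.18, adjusted p = 0.643) and *Flt1* (-0.04 ± 0.17, adjusted p = 0.879) overlapped between the groups. Against hyperplastic islets *Kdr* was 0.49 higher (adjusted p = 0.216, or 0.0106 with the title code as a block in the 6 compared arrays). *Flt1* was 0.45 higher there (adjusted p = 0.214, or 0.0363 with the block). Its hyperplastic minus normal difference was -0.49 (adjusted p = 0.0776, or 0.0146 with the block). *Angpt2*, which loosens vessels before sprouting, was at 7.57, 7.57 and 7.55 in angiogenic islets, against 7.41, 7.35 and 7.35 in normal islets, a difference of 0.19 ± 0.13 (adjusted p = 0.324). Of 10 genes of the VEGF family, *Vegfd* (0.96, adjusted p = 0.00016) and the co-receptor *Nrp2* (0.73, adjusted p = 0.000445) were called higher and *Vegfb* (-0.37, adjusted p = 0.00685) lower, beside 11.8% and 13.0% of all genes. Among 19 FGF and EGF family genes, 3 were called higher (1 without Normal2006), *Fgf2* among them (0.59), and *Egf* (-0.97), *Fgf9* (-0.49) and *Hbegf* (-0.36) were called lower, 3 in all, against 6 with each array centred on its median. Over all genes 11.8% were called higher and 13.0% lower, shares near those of this list. In the TGF-beta list, 4 of 18 genes were called higher and 1 lower, with *Tgfb3* at 1.05, *Tgfb1* at 1.02 and the receptor *Tgfbr2* at 0.87.

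*Igf2*, the fetal growth factor that RT2 lesions are known to switch on, was at 10.66, 10.75 and 10.93 in angiogenic islets, against 9.51, 8.45 and 7.33 in normal islets. Its difference was 2.35 ± 0.36 (adjusted p = 6.63e-05), and the hyperplastic mean was 10.62, so that angiogenic and hyperplastic islets differed by 0.16 (adjusted p = 0.891). *Igf1* was 1.35 higher (adjusted p = 5.41e-06) and stood 1.04 above hyperplastic islets (adjusted p = 0.000924). The binding proteins *Igfbp4* and *Igfbp6* were 1.35 and 0.69 higher, and the receptor *Igf1r* was lower at -0.63 (adjusted p = 0.00465). These were the 5 called of 16 genes of the axis. Of 13 imprinted and oncofetal genes, *Plagl1*, a zinc finger factor, was called higher (1.49, adjusted p = 5.94e-05) and the non-coding RNA *Meg3* lower (-0.58, adjusted p = 0.019), the call of *Meg3* being lost without AngiogenicI-93, Angiogenic2006 or Normal2006. Over all genes 11.8% were called higher and 13.0% lower, larger shares than in this list. The 13 include *Nckap1*, matched through a synonym in place of *H19*, so *H19* itself is not among them.

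Macrophage genes were higher on all 3 angiogenic arrays. Of 19 measured 18 were called (median 1.19), from 15 to 18 as each array was left out. *Csf1r*, the receptor for the macrophage growth factor, was at 8.93, 9.46 and 8.47 in angiogenic islets, against 7.82, 7.52 and 7.7 in normal islets, a difference of 1.27 ± 0.23 (adjusted p = 0.000318). *Lyz2*, lysozyme, was 2.05 higher (adjusted p = 1.89e-05), *Mpeg1*, a pore-forming protein, 1.73 higher and *Cd68*, a lysosomal glycoprotein, 1.47 higher. *C1qb*, of complement, was 1.2 higher. Against hyperplastic islets 9 of the 19 were called higher, and 17 with the title code as a block in the 6 compared arrays. Lymphocyte genes were high on AngiogenicI-93 and Angiogenic2006 and not on Angiogenic2007. *Ms4a1*, a surface antigen of B cells, was at 9.19, 9.0 and 5.1 in angiogenic islets, against 5.88, 5.47 and 5.86 in normal islets. Its difference of 2.03 ± 0.67 (adjusted p = 0.0316) rests on AngiogenicI-93 and Angiogenic2006, since Angiogenic2007 lay below every normal array. Of 10 B-cell genes 6 were called, none with all 3 angiogenic arrays above the normal ones, and of 14 T and NK genes 6. Without Angiogenic2007 these counts were 10 and 12, without AngiogenicI-93 both were 0, and without Angiogenic2006 they were 0 and 2. Without any 1 of the normal arrays the B-cell count was 2 or 3. With the lymphocyte covariate, which is built from such genes, 0 of either list were called. *Cd3e*, of the T-cell receptor complex, differed by 0.51 ± 0.19 (adjusted p = 0.0508).

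Of 26 chemokines and receptors 15 were called higher, with *Cxcr4*, a receptor of leukocytes and endothelium, at 1.47 (adjusted p = 0.00101), *Ccl2*, which draws monocytes, at 0.6 (adjusted p = 0.000261), *Cxcl9* at 1.12 and *Cxcl16* at 0.77. The count was 8 without AngiogenicI-93, 9 without Angiogenic2006 and 9 without Normal2006. With the mean lymphocyte level of each array as a covariate it was 6 higher and 1 lower, against 10 macrophage genes and all 32 mitosis genes. Of 11 antigen presentation genes 5 were called, 8 without Angiogenic2007, 1 or 2 without any other angiogenic or normal array and 0 with the lymphocyte covariate, and *Cd74*, the invariant chain, was 1.19 higher (adjusted p = 0.00845). Of 13 interferon-stimulated genes 3 were called, with 0 without AngiogenicI-93, without Normal2006 or with the lymphocyte covariate. No neutrophil gene of 9 was called by limma, and 0 had an unadjusted p below 0.05. *Kit*, the stem cell factor receptor of mast cells and also of islet cells, was 0.83 ± 0.14 higher (adjusted p = 0.000172). It was the 1 of 9 mast cell genes called higher, and 1 was called lower, beside 11.8% and 13.0% of all genes. The lower call was lost without any 1 of the angiogenic arrays. *Cpa3* (0.05 ± 0.13, adjusted p = 0.811) and *Cma1* (-0.02 ± 0.09, adjusted p = 0.914) were not called.

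Most beta-cell genes were not called as deposited, and more were called lower when each array was centred on its median. *Ins2* differed by 0.19 ± 0.11 (adjusted p = 0.228), and *Iapp*, amylin, differed by -0.06 ± 0.17 (adjusted p = 0.811). *Pdx1*, the factor that maintains beta cells, was at 9.6, 9.63 and 10.04 in angiogenic islets, against 10.15, 10.29 and 10.07 in normal islets, a difference of -0.41 ± 0.17 (adjusted p = 0.088). *Mafa*, which drives insulin transcription, was at 8.69, 8.8 and 9.05 in angiogenic islets, against 9.56, 9.16 and 9.23 in normal islets (-0.48 ± 0.2, adjusted p = 0.093). *Slc2a2*, the glucose transporter of beta cells, was at 11.51, 11.04 and 11.57 in angiogenic islets, against 12.39, 12.16 and 12.51 in normal islets (-0.98 ± 0.37, adjusted p = 0.0588). For all 3 genes every angiogenic array lay below every normal array, and none was called. Of 15 beta-cell transcription factors 2 were called lower, *Hnf4a* (-0.54, adjusted p = 0.00117) and *Foxa2* (-0.32, adjusted p = 0.0129), beside 13.0% of all genes; the count was 4 without Angiogenic2007 and 1 without Normal2006 or Angiogenic2006. With each array centred on its median 6 of the 15 were called lower. Of 14 genes of glucose sensing, receptors and insulin, *Gipr*, the receptor for the gut hormone GIP, was called lower, 1 of the 14 as deposited and 1 of 3 after centring. It was at 9.04, 8.92 and 9.19 in angiogenic islets, against 10.14, 10.25 and 10.17 in normal islets, a difference of -1.14 ± 0.12 (adjusted p = 1.26e-06), and stood 0.56 below hyperplastic islets (adjusted p = 0.0123).

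Of 15 granule and processing genes 5 were called lower (median -0.36): the vesicle proteins *Syp* (-0.57, adjusted p = 0.00175), *Snap25* (-0.5), *Rab3a* (-0.51) and *Syt7* (-0.49) and the convertase chaperone *Scg5* (-0.54). With each array centred on its median 9 of the 15 were called lower, and with the lymphocyte covariate 1. *Syt7* was called without Angiogenic2007 and lost without any other compared array. Hormone genes of the other islet cells fell in part. *Sst*, somatostatin of delta cells, was at 11.89, 11.4 and 12.12 in angiogenic islets, against 12.88, 13.16 and 13.17 in normal islets. Values did not overlap, and the difference was -1.27 ± 0.24 (adjusted p = 0.000597). *Ghrl*, ghrelin, and *Irx1*, an alpha-cell factor, were called lower at -0.5 and -0.59, and so were *Pyy* (-0.92) and *Ttr* (-0.51), 5 of 10 genes, or 3 without Normal2007 or Angiogenic2006. *Gcg*, glucagon, was at 12.88, 12.68 and 13.02 in angiogenic islets, against 13.24, 13.34 and 13.34 in normal islets, below the normal arrays on all 3 but not called (-0.44 ± 0.5, adjusted p = 0.568). *Ppy*, pancreatic polypeptide, was at 12.25, 11.37 and 12.53 in angiogenic islets, against 13.17, 13.35 and 13.32 in normal islets and also not called (-1.23 ± 0.57, adjusted p = 0.128). *Etv1* was the member called higher (0.7, adjusted p = 0.0112), but not without Normal2006. Of 12 progenitor factors *Neurog3*, the endocrine one, fell by 0.91 (adjusted p = 6.53e-06), as did *Gata6* by 0.57. In that list 1 gene was called higher, but not without Angiogenic2007 or Normal2006. These counts stand beside 11.8% of all genes called higher and 13.0% called lower.

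Genes that beta cells normally keep silent, the disallowed genes, rose in angiogenic islets. Of 15 measured 11 were called (median 0.71), and 6 with the lymphocyte covariate. *Slc16a1*, the lactate and pyruvate transporter, was at 7.08, 7.62 and 6.86 in angiogenic islets, against 5.85, 5.65 and 6.05 in normal islets, a difference of 1.34 ± 0.16 (adjusted p = 3.75e-06). *Hk2*, a hexokinase with high affinity for glucose, was 0.47 higher (adjusted p = 0.00505), *Cat*, catalase, 0.96 and *Ndrg2* 0.69. Several members of that list are also genes of fibroblasts and other stromal cells, *Pdgfra* (1.31) and *Igfbp4* (1.35) among them, and the stromal lists above rose on the same arrays; their part in this count was not tested. Hypoxia targets split, *Pfkfb3* being called higher (0.78) and *Bnip3* (-1.31, adjusted p = 0.000239), *Ddit4* (-0.63) and *Ankrd37* (-0.6) lower, 4 of 16. Here and in the glycolysis and respiration lists below, the counts lay near the shares of all genes called, 11.8% higher and 13.0% lower. Of 17 glycolysis genes *Hk2* and *Pfkp* (0.61) were higher and *Ldhb* (-0.7), *Aldoa* (-0.75) and *Eno2* (-0.61) lower. The 17 include *Pigq*, matched through a synonym in place of *Gpi1*. *Aldoa* was not called without Normal2006, nor *Eno2* without Angiogenic2006. *Ldha*, another disallowed gene, was at 9.86, 9.7 and 9.22 in angiogenic islets, against 8.9, 8.85 and 8.91 in normal islets, a difference of 0.71 ± 0.28 that was not called (adjusted p = 0.0747). Among 18 genes of respiration and the citrate cycle, *Idh3a* (0.51) and *Cs* (0.44) were called higher and *Idh2* (-0.39), *Sdhc* (-0.36) and *Fh1* (-0.3) lower. The lower calls of this list numbered 0 without Normal2006 or without Angiogenic2007. They numbered 1 without AngiogenicI-93 or Angiogenic2006, and 2 without NormalI-93 or Normal2007. Of 16 genes of the unfolded protein response 5 were called lower, *Atf4* (-0.63, adjusted p = 0.000329) and *Dnajb9* (-0.63) with the smallest adjusted p, and 2 without Normal2006 or 3 without AngiogenicI-93 or Angiogenic2006. With the lymphocyte or the hepatocyte covariate 1 was called lower. Of 16 genes of sterol and lipid synthesis 3 were called lower, *Insig1* (-0.89) and *Sqle* (-0.52) among them. In that list 1 was called higher, the desaturase *Scd1* (1.32, adjusted p = 0.00328). Over all genes the shares were 13.0% lower and 11.8% higher.

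The largest falls were not in hormone genes. *Asb11*, a subunit of a ubiquitin ligase, was at 6.6, 6.2 and 6.32 in angiogenic islets, against 8.92, 9.45 and 8.97 in normal islets. Every angiogenic array was more than 2 units below every normal one, and it fell by 2.74 (adjusted p = 1.87e-10). *Pla2g2f*, a secreted phospholipase, fell by 2.69 (adjusted p = 1.4e-06), *Angptl7*, an angiopoietin-like secreted protein, by 2.14 (adjusted p = 1.34e-08), and *Sfrp5*, a Wnt inhibitor, by 2.11 (adjusted p = 2.82e-07). *Vil1*, villin of epithelial microvilli, was at 7.98, 6.86 and 7.53 in angiogenic islets, against 10.11, 10.0 and 10.24 in normal islets, a fall of 2.66 (adjusted p = 7.63e-08). *Defb1*, an antimicrobial peptide of epithelia, was at 7.49, 6.59 and 7.39 in angiogenic islets, against 9.58, 9.97 and 9.31 in normal islets. It fell by 2.46 (adjusted p = 3.93e-07) and was 1.14 below hyperplastic islets (adjusted p = 0.00482). The conjugating enzymes *Ugt2b34* and *Sult1d1* fell by 2.41 and 2.27, the organic anion transporter *Slco1a6* by 2.12 and *Cox6a2*, the muscle form of a cytochrome oxidase subunit, by 2.2. *Tmigd3* fell by 2.03. These 11 genes and *Ccnd2* were all called lower in hyperplastic than in normal islets too, where 4.17% of all genes were, with differences between -2.28 and -1.32.

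*Vil1* was also in the list of ductal and epithelial genes, where 4 of 18 were called lower, beside 13.0% of all genes, and the median was -0.03. *Cldn7*, a tight junction claudin, fell by 1.36 (adjusted p = 2.34e-06), *Krt18*, a keratin of simple epithelium, by 0.83 and *Cldn4* by 1.07, the last not called without Angiogenic2006 or Normal2006. *Krt19*, the defining duct keratin, was at 9.05, 7.61 and 7.91 in angiogenic islets, against 7.89, 7.3 and 8.74 in normal islets, and the groups overlapped (0.21 ± 0.4, adjusted p = 0.739). *Msln*, mesothelin, fell by 1.04 (adjusted p = 4.77e-07).

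*Prss3*, a trypsinogen gene, had the largest rise of the genes named here and was at 11.49, 12.09 and 11.39 in angiogenic islets, against 8.92, 9.47 and 5.07 in normal islets. The difference was 3.83 ± 0.82 (adjusted p = 0.00161), but the normal arrays spread over more than 4 units. It was the 1 called of 18 acinar genes, whose mean moved between arrays as given above, and *Cpa1*, a carboxypeptidase of acinar cells, was at 12.99, 13.0 and 11.83 in angiogenic islets, against 12.69, 13.12 and 9.67 in normal islets (0.78 ± 0.61, adjusted p = 0.385). *Prss3* is of a family of near-identical trypsinogens, so probes may not tell its members apart. With the acinar mean of each array as a covariate, 1 of the 18 was called higher and 4 lower. Of 19 hepatocyte genes 11 were called higher and *Ttr*, also an alpha-cell gene, lower. *Alb*, albumin, was at 8.02, 11.3 and 11.81 in angiogenic islets, against 8.1, 6.12 and 7.74 in normal islets (3.06, adjusted p = 0.0181), and AngiogenicI-93 lay within the normal range. *Trf*, transferrin, and *Cps1*, of the urea cycle, were 1.46 and 1.19 higher on all 3 arrays. Without Angiogenic2007 2 were called higher, without Angiogenic2006 4, without Normal2006 4 and without AngiogenicI-93 15. Of 16 Schwann and neuronal genes, *Elavl3*, a neuronal RNA-binding protein, was 1.1 higher (adjusted p = 2.73e-05) and *Ncam1* 0.37 higher, *Ncam1* not without Angiogenic2007 or Normal2006. Of 9 adipocyte genes *Fabp4*, also an endothelial gene, was 0.82 higher and *Pparg* lower at -0.4, *Pparg* not without AngiogenicI-93, Angiogenic2007, Normal2006 or Normal2007. Over all genes 11.8% were called higher and 13.0% lower, and the higher calls of the neuronal and adipocyte lists lay near that share.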

How the data were processed

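Per the labels, total RNA purified with TRIzol was labelled by the Affymetrix whole-transcript protocol and hybridized to Mouse Gene 1.0 ST arrays. Per the series text, the authors processed the scanned images with aroma.affymetrix; the sources used here do not state its version, background correction, normalization or summarization. Deposited values range as log2 intensities do and carry no detection calls, so low levels cannot be told from background. Of 35511 probe sets, 23410 were in the platform's gene table, 21789 with 1 symbol (used), 1621 with several and 12101 unlisted; where a gene had more than 1 (999 genes) the probe set of highest mean stood for it, leaving 19938 genes. limma (version 3.58.1, R 4.3.3) was fitted to all 22 arrays with 6 group means and no block, and moderated p-values were Benjamini-Hochberg adjusted over all genes; a gene with adjusted p below 0.05 is called. The fit was also run on simulated data with independent noise and 1 spread per gene in all groups. That run does not cover unequal group spreads or deviations shared by title code. Arrays have no read depth, and their number limits the precision.

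Named genes were called in the fit of all arrays and in each of 6 fits that left out 1 compared array, with no overlap between the groups: the 12 largest rises and falls (predicted genes and olfactory receptors skipped), up to 4 per gene list by adjusted p, and a set of defining genes as values only. Genes outside this rule were chosen after their values were seen. The members and the 53 gene lists (793 of 853 genes measured) were chosen with earlier results of these data known, so counts over lists are descriptions with no test. Matching by synonym put *Nckap1* in place of *H19*, *Pigq* in place of *Gpi1* and *Loxl3* in place of *Loxl2* (collagen modification). It also put *Klk1b1* in place of *Klk1* (acinar) and *Serpina1d* in place of *Serpina1a* (hepatocyte). All are counted, and *Klk1b1* and *Serpina1d* enter the acinar and hepatocyte means. The alternatives tried were the title code as a block, other sets of arrays, quantile and median scaling, a trended variance, a fold threshold, array weights, a filter on dim genes, every single-symbol probe set, marker means as covariates and leaving out each array. Arrays with the same title code correlated in their deviations from the group means at 0.353 to 0.479 between angiogenic and hyperplastic islets. Between hyperplastic and normal islets the correlations were 0.197 to 0.448, so in both comparisons the code was also tried as a pairing. Calls given without mention of the block use no pairing. The pairing comes from the data, since the labels do not say what the code marks.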

Additional observations from a re-analysis of the deposited data

How the results depend on the processing

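The direction of all 148 named genes was kept under every alternative run (2628 results on the same side of the threshold, 32 no longer called, 0 reversed). The rule that named these genes required a call in the 6 fits that left out 1 compared array. Those results were therefore fixed in advance, and the counts are no test of stability. Of the 32, 14 came with the lymphocyte covariate and 11 with the hepatocyte covariate. Another 6 came with the 6 compared arrays and the block, and 1 with those arrays alone. The 4946 calls between angiogenic and normal islets became 2698 with the lymphocyte mean of each array as a covariate and 759 with a fold change of at least 1 log2 unit; the cause was not tested for the first, and the second counts only larger differences by its construction. They ranged from 3373 to 4476 as each array was left out. The 505 calls between angiogenic and hyperplastic islets became 1039 in the 6 compared arrays with the title code as a block, and ranged from 275 to 869 as each array was left out, an alternative chosen after seeing the data; those between hyperplastic and normal islets ranged from 1162 to 1608. Samples that share a title code deviated together weakly between angiogenic and normal islets (correlations of 0.057, 0.069 and 0.144, each the highest for its angiogenic array), so the codes were not taken as pairs. With the replicate block in all arrays 5532 genes were called (2605 higher and 2927 lower), and in the 6 compared arrays 3590. The number of arrays, 3 in each group, limits what can be called.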

Other observations

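The genes given here are outside the lists and were chosen after their values were seen. The epithelial sodium channel subunits *Scnn1b* and *Scnn1g* fell together. *Scnn1b* was at 8.05, 7.79 and 8.25 in angiogenic islets, against 9.84, 10.01 and 10.0 in normal islets, a difference of -1.92 ± 0.28 (adjusted p = 3.21e-05), and *Scnn1g* fell by 1.74 (adjusted p = 2.33e-06). *Vdr*, the vitamin D receptor, was at 8.93, 8.46 and 9.06 in angiogenic islets, against 10.67, 10.71 and 10.62 in normal islets, a difference of -1.85 ± 0.24 (adjusted p = 1.03e-05). *Gad1*, which makes the transmitter GABA in beta cells, was at 8.28, 8.05 and 8.41 in angiogenic islets, against 9.79, 9.72 and 10.09 in normal islets, and fell by 1.62 (adjusted p = 0.000598), and *Dio1*, a thyroid hormone deiodinase, fell by 1.82 (adjusted p = 5.19e-06). The sulfotransferase *Sult1c2* and the fatty acid hydroxylase *Cyp4f39* fell by 1.93 and 1.94, beside the conjugating enzymes among the largest falls. Among the rises, *Slc38a5*, a glutamine transporter, was at 11.91, 12.32 and 12.07 in angiogenic islets, against 10.51, 9.79 and 8.85 in normal islets, a difference of 2.38 ± 0.34 (adjusted p = 3.12e-05). *Clgn*, a chaperone best known from germ cells, was 2.46 higher (adjusted p = 6.13e-07). *Clec4n*, a C-type lectin of myeloid cells, was at 8.21, 8.49 and 7.7 in angiogenic islets, against 5.78, 5.47 and 5.13 in normal islets. It was 2.67 higher (adjusted p = 1.4e-06) and stood 1.7 above hyperplastic islets (adjusted p = 0.00151). *Vcam1*, an adhesion protein that captures leukocytes, was 2.21 higher (adjusted p = 5.94e-05), and *Anxa1*, annexin A1, 2.09 higher (adjusted p = 4.29e-06).

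For 11 genes hyperplastic islets lay apart from both other groups, with calls of opposite sign against normal and against angiogenic islets. Both differences use the same hyperplastic arrays, so an extreme hyperplastic mean enters both. *Igfbp5*, an IGF-binding protein, averaged 7.61 in hyperplastic islets and was at 8.77, 8.57 and 8.41 in angiogenic islets, against 8.09, 8.33 and 8.48 in normal islets. The angiogenic minus hyperplastic difference was 0.98 (adjusted p = 0.000866) and the hyperplastic minus normal difference -0.7 (adjusted p = 0.00587). *Gsn*, the actin-severing gelsolin, gave 0.79 and -0.57, and *Gulp1*, an engulfment adaptor, 0.95 and -0.49. *Palmd*, *Plpp1*, *Rassf9*, *Rbms3* and *Slco2a1* were lowest in hyperplastic islets too, and *Olfr461*, *Scarna13* and *Slc22a7* were highest there.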
